A study of Mus musculus with 16 samples.

Results

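The 8 genes described here, Rbm46, Cpeb1, Dazl, Stk31, Tex101, Slc25a31, Taf7l and Zcwpw1, encode germ-cell RNA regulators and proteins of the male germline. They were chosen by symbol as a set of genes of the kind that the repressive complex PRC1.6 keeps silent outside the germline, and all 8 were found among the 23284 gene symbols of the count tables. PRC1.6 is a Polycomb complex built on PCGF6 and the RING proteins. It is brought to DNA by the heterodimer of MGA with MAX, which binds E-boxes, and by E2F6 with its DP partner, which binds E2F sites. In mouse embryonic stem cells its loss lets germline genes be transcribed, and most of these genes are normally silent in adult lung.

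RNA was sequenced from 9 mouse lung tumors labelled Max -/- (called Max null here) and 7 labelled wild type for Max. All 16 came from a model named RP on a mixed 129/SvJ and C57BL/6 background, so both groups share the RP alleles, which the labels do not spell out (in mouse lung work the letters usually stand for floxed Rb1 and Trp53, whose loss gives small cell tumors). Deletion in the lung was started by adenovirus carrying Cre recombinase under the CMV promoter, which is not restricted to a cell type. The age of the mice and the exons removed from Max are not given, and nothing states that the tumors came from separate animals, so the spread behind each p-value is that between these samples and may be technical.

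Reads in genes ranged from 8.66 to 15.11 M (mega, as in megabase) in Max null tumors and from 9.15 to 13.2 M in Max wild-type tumors. Max itself measured 74.4 ± 5.98 CPM (reads of the gene scaled to a common total, counts per M reads in genes) in Max null and 65.8 ± 7.97 CPM in Max wild-type tumors (SD, n = 9 and 7), a log2 difference of 0.18 (edgeR adjusted p = 0.281). A count over the whole gene cannot check a deletion of part of it, so directions are given between groups as labelled. Reads aligned to more than 1 place took 9.17% to 11.8% of reads in Max null and 12.3% to 22.2% in Max wild-type libraries, with no overlap. Wild-type tumors 2, 4 and 7 had the highest shares, and results are also given without them. Markers of neuroendocrine cells summed to 3842 to 7780 CPM in Max null and 4274 to 26513 CPM in Max wild-type tumors, with 0 of 8 tested markers called. In bulk tumor RNA, fewer cells of a type and less RNA per cell cannot be told apart.

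The promoters of the members were searched for letter patterns that bear on the complex. The window from 250 bases before to 50 bases after the start of each gene was taken from RefSeq for build GRCm38.p6 (the counts were made on mm9), with all 8 members matched and 10 windows in all, since Stk31 and Zcwpw1 have a pair of starts each. The E-box CACGTG, which reads the same on both strands, was in the windows of 5 of the 8 members, and in those of 8.09% of all 27025 genes. The members' windows were rich in CpG, with 17 to 33 CpG each against a median of 7 in all 32851 windows, and 11.5% of all windows with at least 17 CpG held an E-box. The E2F pattern TTCCCGC, searched on both strands, was in 1 member, Slc25a31, and in 5.29% of all genes. The T-box pattern AGGTGTGA, searched on both strands because MGA also has a T-box domain, was in 0 members and in 1.48% of all genes. The 3 patterns do not overlap each other at these sites. Dazl, Tex101 and Zcwpw1 held no E-box. Of the members that held one, Rbm46 and Cpeb1 were called higher below. Stk31, Slc25a31 and Taf7l had too few reads to be tested in the main fit, and the fit without a filter did not call them. A match describes letters and is no evidence of binding in these tumors.

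The 30 bases around each E-box are shown on the strand of the gene, with the E-box in capitals, because they let the flanks be compared:
Rbm46, chr3:82876500-82876529, minus strand: gtggggccactcCACGTGaggcacgctagg
Cpeb1, chr7:81454717-81454746, minus strand: aaaaatagtgccCACGTGtgtgcgcgtccc
Stk31, chr6:49395472-49395501, plus strand: aggccggccaccCACGTGaccagggctgcg
Slc25a31, chr3:40708766-40708795, plus strand: cgcaactggaaaCACGTGttatggtcacat
Taf7l, chrX:134476522-134476551, minus strand: accctcttatacCACGTGacagaactcgcc

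The E-box began 34 bases before the start of Rbm46, 49 before that of Taf7l, 93 before that of Slc25a31 and 55 or 120 before the starts of Stk31. In Cpeb1 it lay after the start, from base 25 of the transcript. The E2F pattern of Slc25a31, in capitals, also lay after the start, from base 20 of the transcript:
Slc25a31, chr3:40708878-40708907, plus strand: tcagcgcccgctTTCCCGCcagggtaaagc
The 250 bases before the start of Rbm46, the member with the largest difference, are shown with the E-box in capitals:
Rbm46, chr3:82876484-82876733, minus strand: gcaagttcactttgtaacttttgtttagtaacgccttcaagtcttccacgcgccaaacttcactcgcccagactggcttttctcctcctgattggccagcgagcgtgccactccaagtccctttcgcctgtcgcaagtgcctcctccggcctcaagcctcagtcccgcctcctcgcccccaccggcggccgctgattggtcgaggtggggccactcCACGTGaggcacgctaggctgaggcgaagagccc

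Of the 8 members, 2 were higher in Max null tumors, Cpeb1 and Rbm46, and both encode RNA-binding proteins. Zcwpw1 was expressed in every tumor and did not pass the test. The other 5 were at or near 0 in most tumors of both groups, and 2 of them, Slc25a31 and Tex101, stood far above that level in 1 Max null tumor each. Only 3 members, Rbm46, Cpeb1 and Zcwpw1, passed the filter on low counts, which asks for about 0.876 CPM in at least 7 tumors, and were tested. Over all 14825 genes tested, 16% were called in either direction, 7.40% higher and 8.64% lower (edgeR's quasi-likelihood test, Benjamini-Hochberg adjusted p under 0.05).

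**Figure D1:**
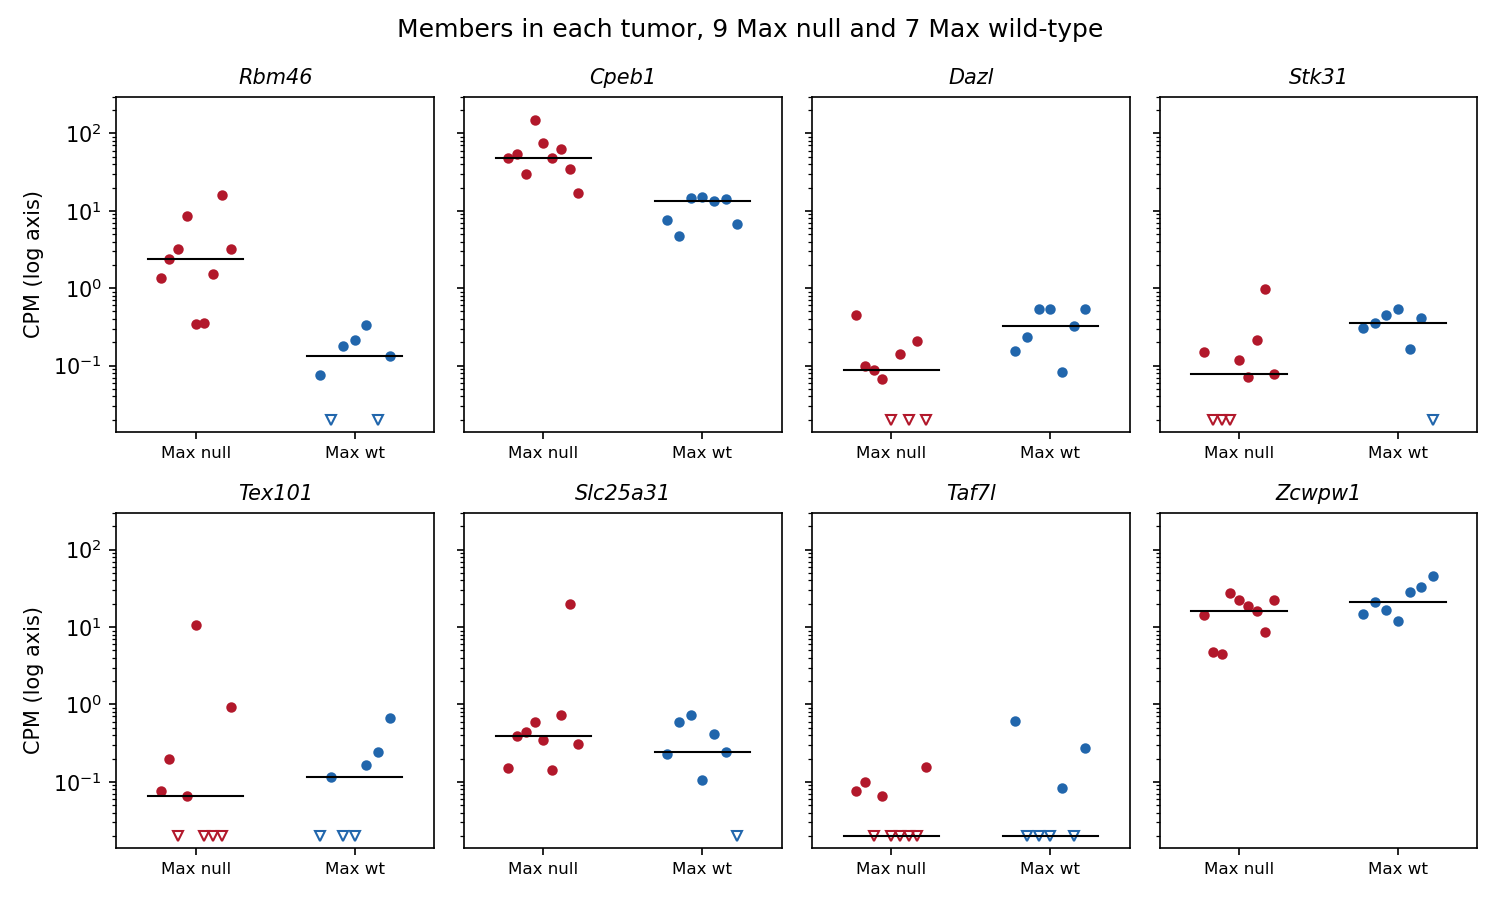
CPM of the 8 members on a log axis in each tumor, Max null (red, left, n = 9) and Max wild-type (blue, right, n = 7). Points are tumors, open triangles are tumors with 0 reads and lines are medians. Cpeb1 and Rbm46 do not overlap between the groups in CPM, and Slc25a31 and Tex101 each have 1 Max null tumor far above the others.

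Cpeb1 binds the cytoplasmic polyadenylation element and controls when stored mRNAs are translated in the oocyte. It is also known in neurons. Its level was lowest at 17.1, at a median of 48.4 and highest at 150.2 CPM in Max null tumors, against 4.68, 13.4 and 15.2 CPM in Max wild-type tumors. The groups did not overlap, since the lowest Max null tumor, number 9, stood above the highest Max wild-type tumor, number 4. In raw reads it had 222 to 2255 in Max null and 40 to 172 in Max wild-type libraries. The mean was 57.8 ± 38.8 CPM in Max null and 10.9 ± 4.43 CPM in Max wild-type tumors (SD, n = 9 and 7), and the log2 difference was 2.40 ± 0.40 (SE, edgeR adjusted p = 0.00278). Higher CPM in all 9 Max null tumors than in any Max wild-type tumor was found in 0.917% of the genes tested, and lower CPM in all 9 in 0.648%. Cpeb1 was thus also transcribed in Max wild-type tumors, at a level well above counting error.

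The call for Cpeb1 held in each of the 16 fits that left out 1 tumor, where the log2 difference ran from 2.07 (without Max null tumor 4) to 2.52. It also held without wild-type tumors 2, 4 and 7 (2.21 ± 0.49, adjusted p = 0.0419), where 1.68% of genes were called and 0.805% were called higher. When the multiply aligned share was added to the model, the difference was 2.21 ± 0.59 and was not called (adjusted p = 0.147). Since the share does not overlap between the groups, this fit can tell it apart from the labelled genotype only through its spread within the groups. The fit called 0.0675% of genes.

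Rbm46 encodes an RNA-binding protein that male germ cells of the mouse need to enter and complete meiosis. It was the member with the largest difference, but from a low level. Its CPM was lowest at 0.349, at a median of 2.36 and highest at 16.1 in Max null tumors, against 0, 0.135 and 0.331 in Max wild-type tumors. In raw reads the Max null libraries held 18, 24, 37, 129, 3, 5, 21, 230 and 42, and the Max wild-type libraries 1, 0, 2, 2, 4, 0 and 1. Tumors 8 and 4 of the Max null group were highest, while Max null tumors 5 and 6 lay at the level of the Max wild-type tumors. The groups therefore did not overlap in CPM only by a margin below counting error: 3 reads in Max null tumor 5 stand against 4 in Max wild-type tumor 5.

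The mean of Rbm46 was 4.12 ± 5.14 CPM in Max null and 0.134 ± 0.120 CPM in Max wild-type tumors (SD, n = 9 and 7), with a log2 difference of 4.83 ± 0.90 (SE, edgeR adjusted p = 0.0043). It passed the filter only through the Max null group, so a difference was built into its being tested. In the fit without a filter, which ran on 21009 genes and called 9.90% of them, the difference was 4.86 ± 0.91 (adjusted p = 0.00509). There it was called in all 16 fits that left out 1 tumor (4.21 to 5.29). With the filter, Rbm46 was not called without wild-type tumors 2, 4 and 7 (4.73 ± 1.23, adjusted p = 0.064) or with the multiply aligned share in the model (4.49 ± 1.43, adjusted p = 0.193). Without a filter it was not called under these settings either (edgeR adjusted p = 0.0694 and 0.204).

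**Figure D2:**
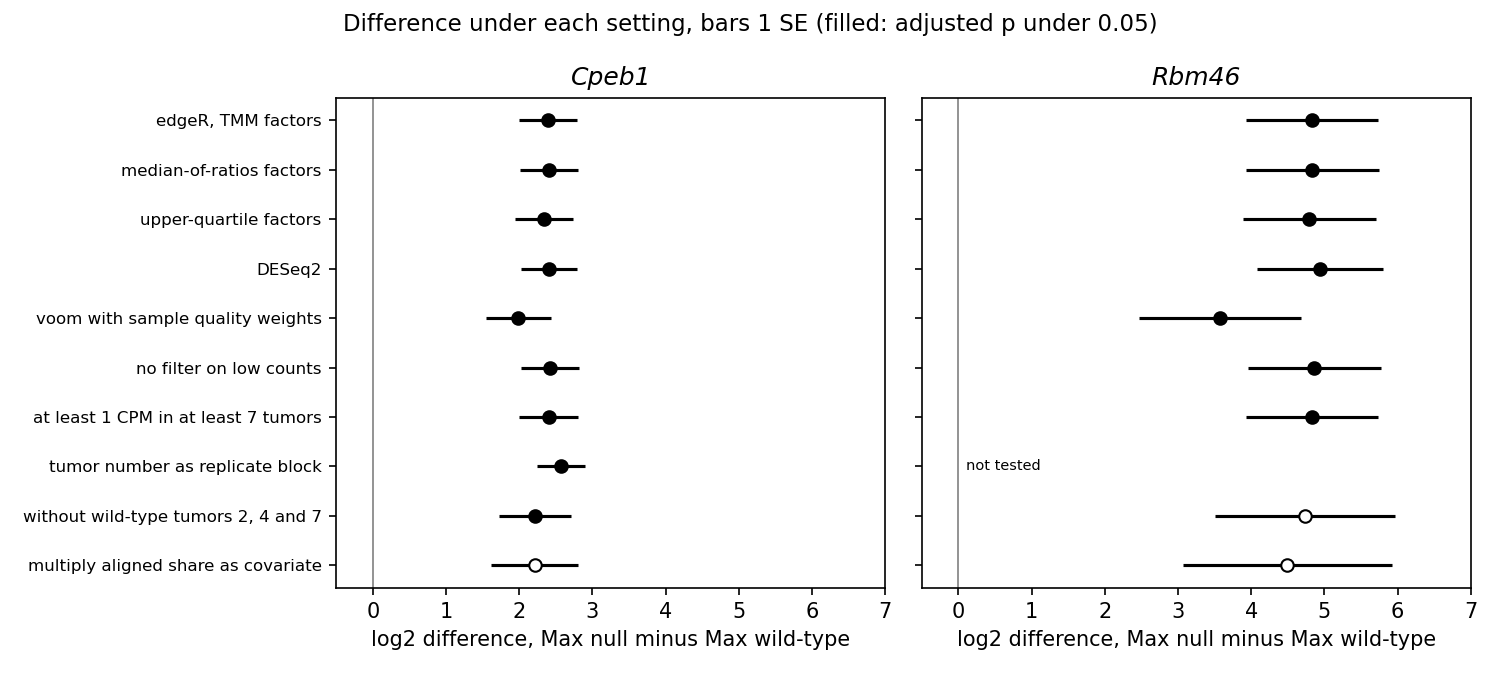
Log2 difference, Max null minus Max wild-type, of Cpeb1 (left) and Rbm46 (right) in the main fit and under the settings other than leaving out 1 tumor. Bars are 1 SE, filled points had an adjusted p under 0.05 and open points did not. The plotted values lie between 1.98 and 2.57 for Cpeb1 and between 3.57 and 4.94 for Rbm46, and the open points are in the fits without wild-type tumors 2, 4 and 7 (Rbm46) or with the multiply aligned share added (both).

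Dazl, which encodes an RNA-binding protein that activates translation in germ cells of both sexes, was close to 0 in both groups. The Max null libraries held 6, 1, 1, 1, 0, 2, 0, 3 and 0 reads, and the Max wild-type libraries 2, 2, 6, 5, 1, 4 and 4. Summed over libraries this is 14 reads or 0.126 per M reads in genes in Max null tumors (95% exact Poisson interval 0.0691 to 0.212) and 24 reads or 0.317 per M in Max wild-type tumors (0.203 to 0.472). These intervals cover counting error only. In the fit without a filter the log2 difference was -1.38 ± 0.66 (edgeR adjusted p = 0.179). Dazl was thus not higher in Max null tumors by any of the fits run, which gave -1.95 to -0.84.

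The paralogs and partners of these RNA-binding proteins were measured beside them. Of the other CPEB genes, Cpeb4 rose by 2.06 ± 0.42 on the log2 scale (35.0 ± 10.4 CPM in Max null and 8.36 ± 5.37 CPM in Max wild-type tumors, SD, n = 9 and 7; edgeR adjusted p = 0.00641) and Cpeb3 by 1.26 ± 0.38 (20.1 ± 9.64 and 8.39 ± 5.63 CPM; adjusted p = 0.0337). Cpeb4 did not overlap between the groups, at 20.5 to 56.7 CPM in Max null and 0.944 to 16.1 CPM in Max wild-type tumors, and its lowest values lay in Max wild-type tumors 7 and 4. Without wild-type tumors 2, 4 and 7 the difference of Cpeb4 was 1.55 (adjusted p = 0.0168) and that of Cpeb3 was 0.83 (adjusted p = 0.245). With the multiply aligned share in the model they were 0.73 and 0.31 and neither was called. Both calls were also lost with the tumor number as a block (edgeR adjusted p = 0.0537 for Cpeb4 and 0.0568 for Cpeb3). The call for Cpeb3 was lost in 5 of 16 fits that left out 1 tumor. Cpeb2 did not pass, at -0.40 ± 0.34 (adjusted p = 0.439). Rbm47, a paralog of Rbm46, rose by 1.23 ± 0.41 (25.4 ± 18.2 CPM in Max null and 10.8 ± 4.66 CPM in Max wild-type tumors; adjusted p = 0.0486), a call lost in 12 of 16 fits that left out 1 tumor and without wild-type tumors 2, 4 and 7 (1.30, adjusted p = 0.209).

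**Figure D3:**
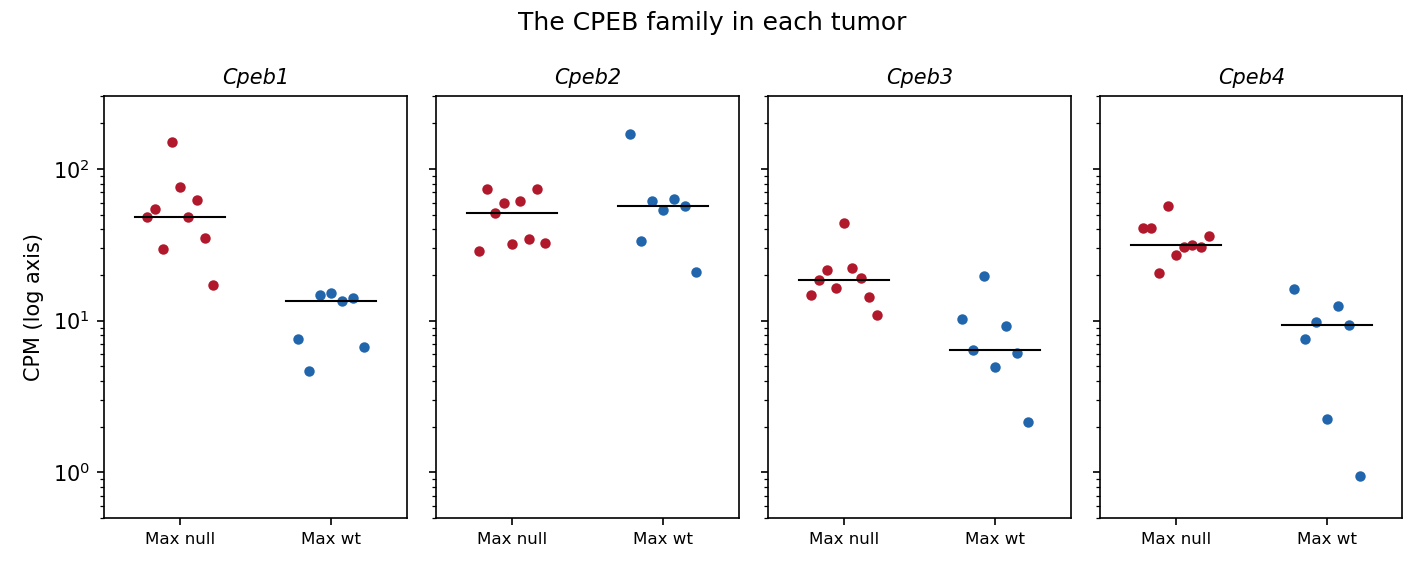
CPM of the 4 CPEB genes on a log axis in each tumor, Max null (red, left, n = 9) and Max wild-type (blue, right, n = 7), with lines at the medians. Cpeb1 and Cpeb4 do not overlap between the groups, Cpeb3 overlaps in part and Cpeb2 overlaps fully.

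Boll, the other autosomal gene of the DAZ family in the mouse and named after its values were seen, had 213 reads summed over Max null libraries and 16 over Max wild-type libraries. It ranged from 1 read in Max null tumor 5 to 83 in Max null tumor 8, against 0 to 8 reads in Max wild-type libraries. In the fit without a filter, which called 4.79% of genes as higher, its log2 difference was 2.96 ± 0.89 (edgeR adjusted p = 0.0423). That call was lost in 13 of 23 alternative fits. These were 10 of the 16 fits without 1 tumor (2.49 to 3.73, adjusted p from 0.0245 to 0.0808), the fit without wild-type tumors 2, 4 and 7 (3.99, adjusted p = 0.103), that with the tumor number as a block (2.53, adjusted p = 0.152) and that with the multiply aligned share in the model (4.10, adjusted p = 0.279). Ythdc2, a partner of RBM46 in the mouse testis, was at 27.7 ± 6.34 CPM in Max null and 29.3 ± 12.8 CPM in Max wild-type tumors (log2 difference -0.08 ± 0.26, adjusted p = 0.85). Meioc, another partner, listed under an older symbol, was near 0 in both groups, at 0.320 ± 0.227 and 0.378 ± 0.203 CPM (SD, n = 9 Max null and 7 Max wild-type).

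In the list of 19 other germ-cell RNA regulators, 7 were tested, with 0 higher and 0 lower, and the median log2 difference was -0.07, against -0.03 over all genes tested. The most abundant, Lin28a and Nanos1, stood at 35.1 ± 25.4 and 30.6 ± 19.2 CPM in Max null tumors and at 35.2 ± 24.7 and 35.0 ± 12.6 CPM in Max wild-type tumors. Their log2 differences were -0.01 ± 0.40 and -0.19 ± 0.34 (adjusted p = 0.992 and 0.727). Among the genes of this list that were not tested, Adad2, which encodes an RNA-binding protein of male germ cells and was named after its values were seen, had 26 reads in 8 of 9 Max null libraries and 0 in all 7 Max wild-type libraries. Set against a floor of 3 reads over the Max wild-type group, its summed rate in Max null tumors was 5.91-fold that floor, counting error left aside. The fit without a filter called it (edgeR adjusted p = 0.0215), a call lost in 3 of 23 alternative fits. These were the fit without wild-type tumors 2, 4 and 7 (adjusted p = 0.111), that with the tumor number as a block (adjusted p = 0.153) and that with the multiply aligned share in the model (adjusted p = 0.454). The fit without a filter also called Rbmxl2 of the same list lower (-8.04 ± 1.78, adjusted p = 0.012) and, among the other germline genes, Sohlh2 (-8.20 ± 1.88, adjusted p = 0.0138). Both rest on 1 library: Rbmxl2 was at -1.50 and not called without Max wild-type tumor 2, and Sohlh2 was at 0.45 and not called without Max wild-type tumor 5. Of 8 factors of cytoplasmic polyadenylation, the process in which CPEB1 works, 1 was called higher, the scaffold gene Sympk (0.47 ± 0.16, edgeR adjusted p = 0.0483), and 7 did not pass, with a median of 0.00. The call for Sympk was lost in 14 of 16 fits that left out 1 tumor.

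Stk31 encodes a protein of spermatogonia with a Tudor and a kinase domain. Max null libraries held 2, 0, 0, 0, 1, 1, 3, 14 and 1 reads and Max wild-type libraries 4, 3, 5, 5, 2, 5 and 0. Its highest count was thus in Max null tumor 8, and the other 8 Max null tumors were at or below the level of most Max wild-type tumors. Summed, it had 0.198 reads per M in Max null (0.124 to 0.301) and 0.317 in Max wild-type tumors (0.203 to 0.472), and without Max null tumor 8 the sum was 0.0826 per M (0.0357 to 0.163). The log2 difference without a filter was -0.73 ± 0.78 (edgeR adjusted p = 0.549), and -1.84 without Max null tumor 8.

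Slc25a31 encodes the ADP/ATP carrier ANT4, which supplies meiotic cells and is a known target of E2F6 in the mouse. Its reads were 2, 4, 5, 9, 3, 2, 10, 281 and 4 in Max null libraries and 3, 5, 8, 1, 5, 3 and 0 in Max wild-type libraries. Max null tumor 8 stood at 19.7 CPM, 27.3 times the next Max null tumor, and held 86.4% of the summed CPM of the group. The other 8 Max null tumors had 2 to 10 reads each. Summed, they had 0.403 reads per M (0.286 to 0.550), against 0.331 (0.214 to 0.488) in Max wild-type tumors, and the intervals overlap. In the fit without a filter the log2 difference was 2.93 ± 1.10 (edgeR adjusted p = 0.0917), and it was 0.24 without Max null tumor 8. The somatic ADP/ATP carrier genes Slc25a4 and Slc25a5 did not pass the test, at -0.31 ± 0.23 and -0.29 ± 0.27 (adjusted p = 0.371 and 0.469).

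Tex101 encodes a surface protein of male germ cells that mouse sperm need to pass into the oviduct. It had 1, 2, 0, 1, 91, 0, 0, 0 and 12 reads in Max null libraries and 0, 1, 0, 0, 2, 3 and 5 in Max wild-type libraries. Max null tumor 5 held 89.4% of the summed CPM of the group, at 10.6 CPM, and Max null tumor 9 was next at 0.922 CPM. Without Max null tumor 5 the group had 0.157 reads per M (0.0895 to 0.254), against 0.145 (0.0726 to 0.260) in Max wild-type tumors. The log2 difference without a filter was 2.93 ± 1.41 (edgeR adjusted p = 0.18), and it was 0.02 without Max null tumor 5.

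Max null tumor 8, the tumor high for Slc25a31, was also the highest Max null tumor for Rbm46 and Stk31. For Tex101 it had 0 reads. Max null tumor 5, high for Tex101, was the lowest for Rbm46. Reads that lay mostly in 1 tumor were looked for over all genes, by a rule set after these values were seen: at least 75% of the CPM summed over 16 tumors and at least 10 CPM in that tumor. It was met by 49 of 23284 genes (0.210%), 28 in a Max null and 21 in a Max wild-type tumor. Slc25a31 and Tex101 were the members among them. Of 41 other germline and germ-cell RNA genes 3 met it: Tex11, needed for crossovers in male meiosis, with 754 reads in Max null tumor 7, Sohlh2, a transcription factor of spermatogonia and oocytes, with 1344 reads in Max wild-type tumor 5, and Rbmxl2, an RNA-binding protein of spermatocytes, with 320 reads in Max wild-type tumor 2. Such tumors were therefore in both groups.

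**Figure D4:**
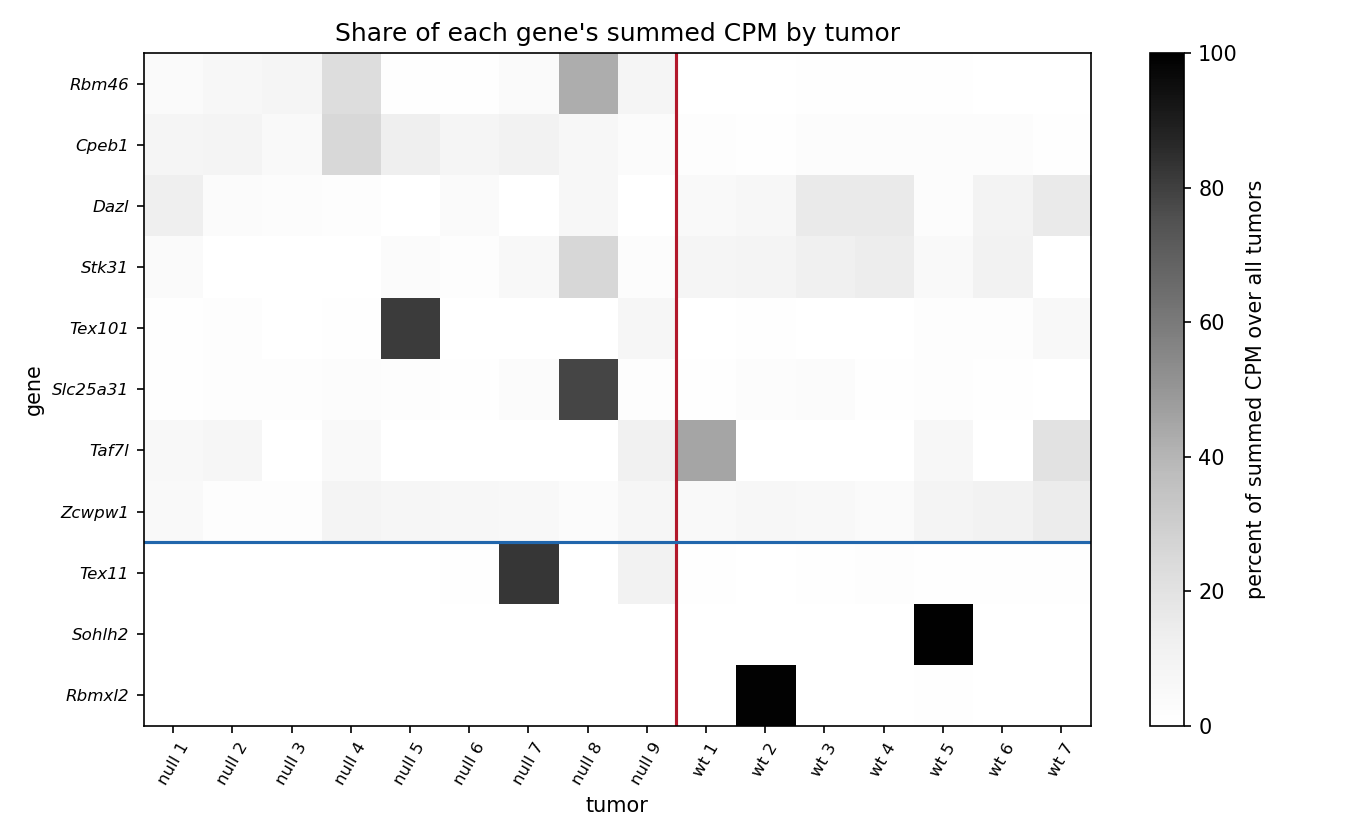
Share of each gene's CPM, summed over the 16 tumors, that lay in each tumor, in percent (white 0, black 100), for the 8 members (above the blue line) and 3 other germline genes (below it), with Max null tumors left of the red line. Slc25a31, Tex101 and Tex11 have most of their reads in 1 Max null tumor, Sohlh2 and Rbmxl2 in 1 Max wild-type tumor, and Zcwpw1 is spread over all 16.

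Taf7l encodes a testis paralog of the TFIID subunit TAF7 and is X-linked. It had 5 reads over all Max null libraries and 11 over all Max wild-type libraries, 8 of them in Max wild-type tumor 1. This is 0.0451 reads per M in Max null (0.0146 to 0.105) and 0.145 in Max wild-type tumors (0.0726 to 0.260), with a log2 difference without a filter of -1.44 ± 0.92 (edgeR adjusted p = 0.312), and of -0.17 (adjusted p = 0.924) without Max wild-type tumor 1. Taf7 itself fell by 0.85 ± 0.27 on the log2 scale, to 11.4 ± 5.46 CPM in Max null tumors, against 20.6 ± 6.91 CPM in Max wild-type tumors (SD, n = 9 and 7; edgeR adjusted p = 0.0382). The call for Taf7 was lost in 10 of 16 fits that left out 1 tumor and without wild-type tumors 2, 4 and 7 (-0.57, adjusted p = 0.302).

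Zcwpw1 encodes a reader of the histone marks that PRDM9 writes at meiotic recombination sites. It was lowest at 4.46, at a median of 15.9 and highest at 27.6 CPM in Max null tumors, against 11.99, 21.2 and 45.8 CPM in Max wild-type tumors, so the groups overlapped widely. The means were 15.5 ± 8.24 CPM in Max null and 24.5 ± 12.04 CPM in Max wild-type tumors (SD, n = 9 and 7), and the log2 difference was -0.66 ± 0.38 (edgeR adjusted p = 0.239). Its exons share 8.21% of their bases with the counted gene Pilra in the reference annotation, so its level is uncertain to that extent. Zcwpw1 was not called in any of its 25 alternative fits, which gave -0.82 to -0.26.

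Levels between members can be set side by side only per length of exon. As the median over Max null tumors, Cpeb1 had 11.5 CPM per kilobase, Zcwpw1 2.80, Rbm46 0.943 and Slc25a31 0.184, and Tex101, Stk31, Dazl and Taf7l were at 0.0402 or below. In Max wild-type tumors Zcwpw1 (3.72 CPM per kilobase) and Cpeb1 (3.20) came first, and the other 6 were at 0.116 or below.

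The tested genes whose profile over the 16 tumors was most like that of a called member were found by the root mean square difference of centred log2 CPM, among 13309 named genes averaging 1 CPM or more. For Cpeb1 these were Pcdhga10 (0.61) and Acot6 (0.66), where the median gene was at 1.45. Pcdhga10 belongs to the clustered protocadherins, whose members share exons, so its count is uncertain. Acot6, an acyl-CoA thioesterase gene, was at 3.08 ± 1.30 CPM in Max null and 0.790 ± 0.421 CPM in Max wild-type tumors. For Rbm46 they were Casr, the calcium-sensing receptor gene (1.07), and Creb3l2, a membrane-bound transcription factor gene (1.13), where the median gene was at 2.03. Casr was at 96.0 ± 57.7 CPM in Max null and 17.0 ± 8.98 CPM in Max wild-type tumors, and like Rbm46 it was lowest in tumor 5 of the Max null group. Such likeness follows from how the neighbors were chosen, over these same tumors, and is no separate result. None of these 4 genes was called without wild-type tumors 2, 4 and 7.

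The other genes around PRC1.6 give the setting of these values, and their direction is known from earlier results of these data. Of 15 subunits, all tested, Mga was called higher (1.10 ± 0.20, 268 ± 53.1 CPM in Max null and 125 ± 36.7 CPM in Max wild-type tumors, SD, n = 9 and 7; edgeR adjusted p = 0.00347), Cbx3 lower (-0.55 ± 0.18, adjusted p = 0.0453) and 13 did not pass, with a median of 0.02. The call for Cbx3 was lost in 13 of 16 fits that left out 1 tumor, and that for Mga with the multiply aligned share in the model (0.57, adjusted p = 0.246). Of 22 other germline genes that PRC1.6 or E2F6 is known to repress or that belong to the same pathways, 11 were tested. Stag3 (6.14 ± 0.73), Mei1 (5.04 ± 0.68) and Tdrd1 (4.01 ± 1.17) were called higher (edgeR adjusted p = 0.000843, 0.00144 and 0.0302), Hsf2bp lower (-1.56 ± 0.50, adjusted p = 0.0427) and 7 did not pass, with a median of 0.84 against -0.03 over all genes tested. That median covers only the 11 tested genes, and 7.40% of all genes tested were called higher. Mei1, at most 0.539 CPM in Max wild-type tumors, passed the filter only through the Max null group. Stag3 and Tdrd1, with Max wild-type medians of 0.579 and 0.234 CPM, passed it largely the same way. A difference was thus built into these genes being tested. Stag3 and Mei1 were called in every alternative fit in which they were tested, whereas the call for Tdrd1 was lost without Max null tumor 9 or without any of wild-type tumors 2, 4 and 7, and that for Hsf2bp in 11 of 16 fits that left out 1 tumor. The call for Tdrd1 was also lost with voom (adjusted p = 0.0615), without wild-type tumors 2, 4 and 7 together (adjusted p = 0.22) and with the multiply aligned share in the model (adjusted p = 0.381). Leaving out 1 tumor gave 3.42 (without Max null tumor 9) to 6.37 (without Max wild-type tumor 6) for Tdrd1, and -1.75 to -0.996 (without Max wild-type tumor 7) for Hsf2bp.

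Markers of other cells that could carry such transcripts were measured as lists. Of 11 markers of germ cells, 0 of 3 tested were called, 4 spermatid genes (Acrv1, Prm2, Tnp1 and Tnp2) had at most 3 reads in any library, and the summed level was 10.7 to 93.4 CPM in Max null and 8.14 to 42.8 CPM in Max wild-type tumors. Prm1, the other spermatid gene of that list, was above 3 reads in some library, and its values are not given here. Of 9 markers of ciliated airway cells, which share axonemal genes with sperm, 0 were called and the sum was 51.4 to 278 CPM in Max null and 84.3 to 243 CPM in Max wild-type tumors. Of 7 macrophage markers 3 were lower in Max null tumors, Cd68, C1qa and C1qb (sum 109 to 234 against 172 to 431 CPM), and of 7 alveolar type 2 markers Abca3 was higher (sum 673 to 2893 against 134 to 2001 CPM). Of the markers of club cells, endothelium, fibroblasts and lymphocytes, 0 were called. Nanog, on a list of 4 pluripotency genes, was lower. Over all genes tested, 8.64% were called lower and 7.40% higher, and no alternative fits are given for these marker calls. The part of these cell types in the differences of the members was not tested.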

How the data were processed

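For every tumor the authors deposited a table of raw counts, in whole reads for each gene symbol. Tools listed by the submitters' processing notes, without their roles, are TopHat2 2.0.12, TopHat, HTSeq 0.6.1 and bcl2fastq 1.8.4, and the build is mm9. Neither annotation nor strand setting is stated there (not given in the sources used here). Totals of reads in no single gene (29.2% to 32.9% of reads in Max null and 32.8% to 45.6% in Max wild-type files) stayed out of library sizes and tests. No pair of libraries was identical (highest correlation of log2 CPM 0.963).

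Groups came from the labels. All genes were fitted with edgeR's quasi-likelihood test (edgeR 4.0.16, R 4.3.3), TMM factors and filterByExpr, and p-values were adjusted over all genes tested. The steps were tested on simulated data. SE is the difference divided by the square root of F. CPM uses TMM-scaled library sizes. Exon lengths and overlaps are from GENCODE (GRCm38). The alternatives were other scalings, DESeq2 1.42.0, limma-voom (limma 3.58.1), no filter or a stricter one (at least 1 CPM in at least 7 tumors), the tumor number as a block, leaving out each tumor, leaving out wild-type tumors 2, 4 and 7, and the multiply aligned share as a covariate. The members, lists and these alternatives were chosen with earlier results of these data known. The genes named are the members, every called gene of a pathway or marker list or else, for a pathway list, its 2 most abundant, and the 2 closest profiles for each called member. Outside this rule, Boll, Adad2, Cpeb2, Ythdc2, Meioc, Slc25a4, Slc25a5, Tex11, Sohlh2, Rbmxl2 and the spermatid markers were chosen after their values were seen.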

Additional observations from a re-analysis of the deposited data

Results flagged for a closer look

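A tumor was singled out where its gap to the nearest other tumor of its group, divided by the range of the group, passed Dixon's 95% value (0.493 for 9 tumors, 0.568 for 7). This held in 17 of 52 groups of CPM values, 10 Max null and 7 Max wild-type. Chance flags about 1 in 20 groups, but the count cannot be set against that, since Tex11, Sohlh2 and Rbmxl2 were picked for having most of their reads in 1 tumor and some flags rest on a few reads.

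Among the members the Max null tumors far from the others were number 8 for Slc25a31 (19.7 CPM) and Stk31 (0.982 CPM), number 5 for Tex101 (10.6 CPM), number 4 for Cpeb1 (150.2 CPM) and number 1 for Dazl (0.455 CPM, from 6 reads). Max wild-type tumor 7 stood apart for Tex101, at 0.674 CPM from 5 reads.

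Among the other germline genes it was Max null tumor 7 for Tex11 (54.4 CPM), Max null tumor 9 for Tdrd1 (97.5 CPM), Max null tumor 1 for Rbmxl2 (0.0758 CPM, a single read), Max wild-type tumor 2 for Rbmxl2 (37.4 CPM), Max wild-type tumor 5 for Sohlh2 (111 CPM), Max wild-type tumor 6 for Tdrd1 (9.27 CPM), Max wild-type tumor 1 for Stag3 (11.9 CPM) and Max wild-type tumor 7 for Hsf2bp (5.93 CPM). Max null tumor 5 stood apart for Cpeb3 (44.0 CPM) and Taf7 (25.4 CPM). Max wild-type tumor 3 was low for Cbx3, at 330.1 CPM.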

How the results depend on the processing

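Of the 8 members, 2 were called in the main analysis and under both other scalings, DESeq2, voom, no filter and the stricter filter. Without wild-type tumors 2, 4 and 7 there was 1 (Cpeb1; Rbm46 at 4.73, and 4.74 without a filter), and with the multiply aligned share in the model 0 (Cpeb1 2.21; Rbm46 4.49, and 4.51 without a filter). Leaving out 1 tumor gave 1 or 2 members called, because Rbm46 fell below the filter without any of 7 Max null tumors; where tested it was 4.60 to 5.25, and Cpeb1 2.07 to 2.52. Genes called over the whole table numbered 2378, 256 without wild-type tumors 2, 4 and 7, 10 with the share in the model and 1471 to 3033 without 1 tumor, lowest without wild-type tumors 4 and 7.

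Tumor numbers did not pair the samples (2 of 7 pairs correlated above 0.1, and 0 of 7 wild-type tumors matched their own number best). With the number as a block, over 14 tumors, 278 genes and 1 member were called, Cpeb1 at 2.57 (Rbm46, not tested there, was 3.86 and called without a filter).

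Direction turned for Tex101 with DESeq2 (-0.24) and voom (-0.44), Tex11 with the block (-0.68) and voom (-0.31), Lin28a without a filter (0.027) and without 1 tumor (-0.33 to 0.43), Sohlh2 without 1 tumor (-8.62 to 0.45), and Nanos1 without wild-type tumors 2, 4 and 7 (0.12) and with the share in the model (0.056); the cause was not tested. DESeq2 gave no adjusted p for Taf7l, Sohlh2 and Rbmxl2. The counts of the 5 untested members are too low to show differences at this depth other than large ones.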
